A study of Bos taurus with 6 samples.

Results

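Sterol and fatty acid synthesis genes code for the enzymes that build cholesterol and long-chain fatty acids from acetyl-CoA, together with the proteins that switch those enzymes on. The 34 genes were taken by name from the platform annotation of a bovine oligonucleotide array, with older synonyms accepted. They were represented by 62 probes of 43794 in all, among 15216 named genes. Of the 34 genes, 32 had a probe above background, against 11190 genes in the whole series. They were read in 3 sets. The sterol arm held 19 enzymes of the mevalonate and cholesterol pathway (18 above background). The fatty acid arm held 9 enzymes (8 above background), and 6 further genes were regulators or a sterol carrier (6 above background). The probes of LSS, the lanosterol synthase, and of FASN, the fatty acid synthase, did not pass the filter, with treated RNA above background on 1 of 6 arrays for each and control RNA on 1 and 2 arrays.

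The study asked how FGF8, a fibroblast growth factor, changes the transcripts of granulosa cells, the somatic cells that surround the oocyte and make oestradiol. Cells of Holstein follicles of 2 to 6 mm were cultured without serum, with FSH and insulin at 10 ng/ml each, for 5 days. FGF8-treated cells then received FGF8 at 10 ng/ml and are labelled 2 h, while control cells are labelled 0 h and received none. There were 3 replicates, each with treated and control RNA hybridised together on 2 arrays with the dyes swapped, which makes 6 arrays. FGF8 itself and the added 2 h of culture therefore cannot be told apart. The origin of the replicates, from 1 or several animals or cultures, is not stated in the sources used here, so p-values measure the spread between these samples.

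Cholesterol is assembled from acetyl-CoA through mevalonate and isoprenoid units to squalene, which is then closed into lanosterol and trimmed to cholesterol. When sterols in the endoplasmic reticulum are low, SCAP escorts the SREBP transcription factors to the Golgi, where they are cut and released to the nucleus. INSIG proteins hold SCAP back when sterols are plentiful. SREBP2 mainly drives the cholesterol enzymes and SREBP1 mainly the fatty acid enzymes. In granulosa cells cholesterol is also the starting material of steroid hormones.

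All values are log2 ratios of FGF8-treated over control RNA, as deposited by the authors, and a replicate value is the mean of its 2 dye-swapped arrays. Each gene stands for its brightest probe above background. Of 14 granulosa markers, 12 had a probe above background, while HSD17B1 and FOXL2 had none. In the whole series 11190 of 15216 named genes had such a probe, so these marker counts do not tell cell types apart. Among 13 theca and stroma markers 10 were above background, among them INSL3, a theca cell marker (treated RNA on 5 arrays, control RNA on 4), while CYP17A1, LHCGR and TAGLN were not. So were 7 of 9 endothelial and 8 of 10 leukocyte and blood markers. Of 6 early FGF response genes, 5 (EGR1, SPRY2, NR4A1, SPRY1 and FOS) were higher on all 6 arrays, as were 3.49% of all genes. The remaining gene, DUSP6, had -0.19, 0.17 and 2.10 in replicates 1, 2 and 3. Replicate medians of the 6 were 1.39, 1.16 and 1.37. Over all genes tested, the 2 arrays of a replicate correlated at 0.580 in replicate 1, -0.0523 in replicate 2 and 0.530 in replicate 3, a description across 11190 genes that share the arrays.

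In the sterol arm the replicates went different ways, and within each replicate the 2 arrays went the same way. The median ratio of the 18 genes stood at 0.28 in the first replicate, at -0.32 in replicate 2 and at 0.22 in replicate 3. On single arrays it was 0.32 and 0.31 in replicate 1, -0.32 and -0.35 in replicate 2, and 0.17 and 0.21 in replicate 3. In bulk RNA, fewer cells of a type and less RNA per cell cannot be told apart. In replicate 1, 11 of the 18 genes were higher on both arrays, where 32.6% of all genes were. In replicate 2, 14 of the 18 were lower on both arrays, where 24.4% of all genes were. In replicate 3, 10 of the 18 were higher on both arrays, where 32.7% of all genes were. The medians of all genes in the 3 replicates were -0.010, -0.00090 and 0.020, so the set stood on opposite sides of the array as a whole in replicates 1 and 2. Medians of the 12 granulosa markers above background were 0.48, -0.12 and 0.13 in the same replicates. Of these, 4 (INHBA, INHA, CYP19A1 and AMH) were higher on both arrays of replicate 1 and lower on both of replicate 2, as were 9.31% of all genes. In replicate 1, 3 of the 12 (NR5A2, CDH2 and IHH) had values below 0. NR5A2 had -0.58 in replicate 1 and 0.28 in replicate 2. Medians of the theca and stroma markers were -0.0008, 0.075 and -0.10, those of the endothelial markers 0.15, 0.056 and 0.015, and those of the leukocyte and blood markers -0.25, 0.062 and -0.11. The part of these cell markers in the sterol result was not tested. The set is described by these counts and medians alone.

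**Figure D1:**
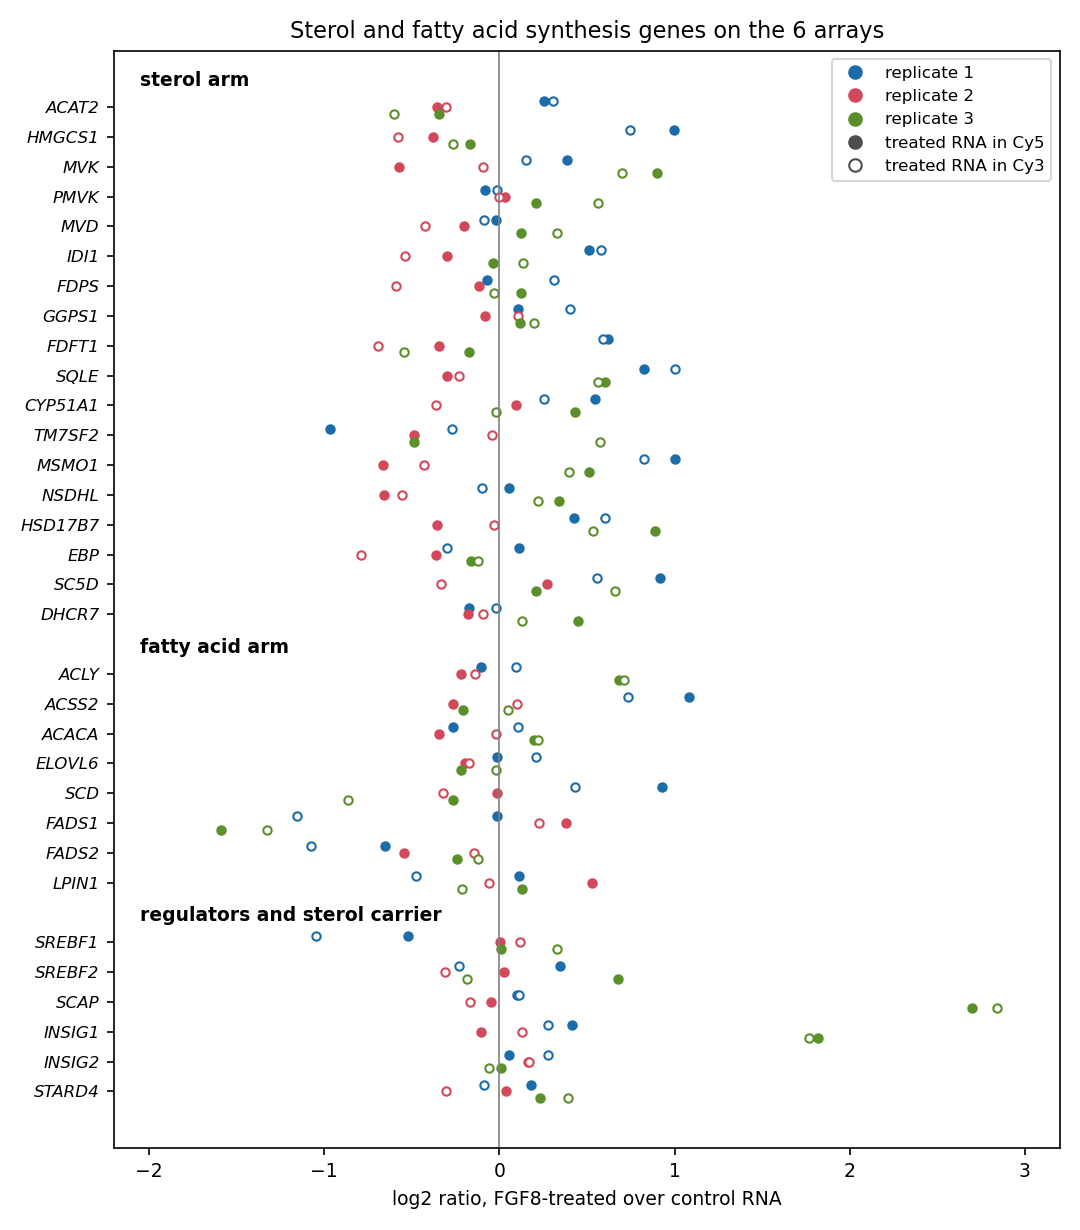
Log2 ratio of FGF8-treated over control RNA (horizontal axis) for the 32 genes above background, one row per gene, with a point for each of the 6 arrays; colour gives the replicate, filled points have treated RNA in Cy5 and open points treated RNA in Cy3. In the sterol arm most points of replicate 2 lie left of 0 (14 of 18 genes on both arrays), while those of replicate 1 lie mostly right of it (11 of 18), and the 2 points furthest right belong to SCAP in replicate 3.

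Averaged over replicates the opposite values cancelled. The mean of the sterol arm's replicate medians was 0.056 ± 0.33 (SD, n = 3), beside 0.0029 ± 0.016 for all genes tested. Single gene means ran between -0.28 for TM7SF2 and 0.41 for SQLE, with 11 of 18 above 0, where 51.0% of all genes were. By limma with Benjamini-Hochberg adjustment over all 27210 probes, 0 of the 18 sterol genes passed at an adjusted p under 0.05, and 0% of all genes did (1 unnamed probe, 0.00368% of probes, passed). At an unadjusted p under 0.05 the sterol arm had 0 genes, where 5.52% of all genes passed. Over all 32 genes, each on its brightest probe, adjusted p lay between 0.856 and 0.998, and 1 gene, FADS2, had an unadjusted p under 0.05. The second probe of SREBF2 also had one (unadjusted p = 0.0302, adjusted p = 0.856 in limma). A p that misses the threshold does not show that a gene stayed level.

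Among the enzymes of the mevalonate and isoprenoid steps, 8 genes, the medians were 0.26, -0.33 and 0.10 in replicates 1, 2 and 3. HMGCS1, which makes HMG-CoA, had 1.00 and 0.74 on the arrays of replicate 1, -0.38 and -0.58 on those of replicate 2, and -0.17 and -0.27 on those of replicate 3. On this probe treated RNA was 1.83-fold higher in replicate 1, and 1.39-fold and 1.16-fold lower in replicates 2 and 3. Another HMGCS1 probe had 0.37 and 0.38 on the arrays of replicate 3, so no direction is given for the gene there. MVK, the mevalonate kinase, had 0.39 and 0.15 in replicate 1, -0.57 and -0.094 in replicate 2, and 0.90 and 0.70 in replicate 3, the highest value of the sterol arm there. Its second, far dimmer probe had -0.82 in replicate 3. This probe was above background in treated RNA on 4 arrays and in control RNA on 5, so it is a weak reading. IDI1, which interconverts the isoprenoid building blocks, had 0.51 and 0.58, then -0.30 and -0.54, then -0.037 and 0.14 in the 3 replicates. ACAT2, the cytosolic thiolase at the head of the pathway, had 0.28 in replicate 1, -0.33 in replicate 2 and -0.48 in replicate 3, which was the lowest sterol value of replicate 3. Its other probe was far dimmer, above background in treated RNA on 2 arrays and in control RNA on 4. That probe had -0.23, -0.56 and 0.31 in replicates 1, 2 and 3, and its sign is not used. PMVK, the phosphomevalonate kinase, was the highest sterol gene of replicate 2 at only 0.016, so the arm's top there lay at about 0. MVD, the decarboxylase of the pathway, FDPS, the farnesyl diphosphate synthase, and GGPS1, which serves the non-sterol branch, had mean ratios of -0.048, -0.062 and 0.14. GGPS1 had positive replicate values throughout (0.25, 0.011 and 0.16), the only sterol gene with that, where 13.6% of all genes had it. HMGCS1, IDI1, MVD, FDPS and GGPS1 are named here after their values were seen.

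From squalene to cholesterol, 10 genes, the medians were 0.46, -0.26 and 0.28. MSMO1, the sterol methyl oxidase, had 1.00 and 0.83 on the arrays of replicate 1, -0.66 and -0.43 on those of replicate 2, and 0.51 and 0.40 on those of replicate 3. It was the highest sterol gene of replicate 1, at 1.89-fold in treated cells, and 1.46-fold lower in replicate 2. Before normalization its spot had intensities over local background of 21710 and 20364 in treated RNA of replicate 1, against 9883 and 10881 in control RNA. In replicate 2 they were 10879 and 9278 in treated RNA, against 17336 and 11716 in control RNA. SQLE, the squalene epoxidase, followed the same order, with 0.82 and 1.00, then -0.30 and -0.23, then 0.60 and 0.56. HSD17B7, which reduces the sterol ketone, had 0.42 and 0.61, then -0.36 and -0.030, then 0.89 and 0.54. SQLE and HSD17B7, like MSMO1, were below 0 on both arrays of replicate 2 and above 0 on the other 4 arrays, as were 2.65% of all genes.

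FDFT1, the squalene synthase at the branch to sterols, had 0.60 in replicate 1 but -0.52 and -0.36 in replicates 2 and 3 (named after its values were seen). Its second probe, above background in both RNAs on all 6 arrays, had -0.17, -0.11 and -0.35. That probe was far dimmer, with intensities over local background of 75 to 189, against 1476 to 3521 for the brightest. The probes thus parted in replicate 1, where the dimmer one is a weak reading. NSDHL, a sterol dehydrogenase, was near 0 in replicate 1 (0.052 and -0.098 on its arrays), was the lowest sterol gene of replicate 2 (-0.66 and -0.56), and had 0.34 and 0.22 in replicate 3. SC5D, the sterol desaturase, had the smallest p of the arm in limma (mean 0.38 ± 0.39, SD, n = 3, unadjusted p = 0.0707, adjusted p = 0.856). It was higher on 5 of 6 arrays, with 0.27 and -0.33 on the arrays of replicate 2. EBP, the sterol isomerase, was lower in all 3 replicates (-0.094, -0.58 and -0.14), as were 12.7% of all genes, and lower on 5 of 6 arrays. TM7SF2, a sterol reductase, had -0.97 and -0.27 in replicate 1, -0.49 and -0.042 in replicate 2, and -0.49 and 0.57 in replicate 3, each time lower where Cy5 marked the treated RNA. On this brightest probe it was the 1 of 32 genes with a dye effect at an adjusted p under 0.05 in limma, where 7.22% of all genes had one. Its other, far dimmer probe, with control RNA above background on 4 arrays, had a dye effect of the opposite sign, 0.63 on the log2 scale (adjusted p = 0.0491 in limma). CYP51A1, the lanosterol demethylase, and DHCR7, the last reductase, had means of 0.16 and 0.018 (both named after their values were seen).

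A set of 8 sterol enzymes was higher on both arrays of replicate 1 and lower on both of replicate 2, namely ACAT2, HMGCS1, MVK, IDI1, FDFT1, SQLE, MSMO1 and HSD17B7, which is 8 of 18 where 9.31% of all genes were. Of these, 4 (MVK, SQLE, MSMO1 and HSD17B7) were also higher on both arrays of replicate 3, where 2.65% of all genes showed that order. The order of the 3 replicates was noticed in these data, so the counts describe it and carry no test. They rest on the brightest probe of each gene.

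A test of the differences among the 3 replicates, chosen after the values had been seen, used the spread of each dye-swapped pair of arrays as its error. It asks whether the array pairs differ beyond array error, so its p-values say nothing about cultures or animals. By limma's F test over all probes it called 20.0% of all genes at an adjusted p under 0.05, and 15 of the 32 genes described here. In the sterol arm the called genes were HMGCS1, MVK, IDI1, FDFT1, SQLE, MSMO1, NSDHL and HSD17B7, 8 of 18. MSMO1 had the smallest adjusted p of the arm (0.000744), followed by HMGCS1 (0.000932). In the fatty acid arm ACLY, ACSS2, SCD and FADS1 were called, 4 of 8, and among the regulators SREBF1, SCAP and INSIG1, 3 of 6. Without replicate 2 the sterol count was 3, without replicate 1 it was 5 and without replicate 3 it was 7, where 1938, 1217 and 1429 genes in all were called. With ratios made from mean foreground intensities it called 4863 of 11190 genes, 22 of the 32 and 11 of the 18, so the share over all genes grew more than that of the sterol arm.

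The spread was then compared within and between replicates. The median SD of a sterol gene between replicates was 0.39 on the log2 scale, and between the 2 arrays of a replicate 0.15. For all genes tested these medians were 0.25 and 0.26. Several sterol genes were read by bright probes, such as MSMO1 at 9278 to 21710 over local background, while MVD and PMVK were dim. The median foreground of all probes, kept or not, was 108 to 192 per array and dye. The all-gene medians, and the shares of all genes given above, were not matched for brightness. The part of brightness in these differences was not tested. Across the 18 sterol genes the 2 arrays of a replicate correlated at 0.820, 0.184 and 0.568 in replicates 1, 2 and 3. In replicate 2, 14 of the 18 points lay below 0 on both arrays, PMVK lay just above 0 on both, and GGPS1, CYP51A1 and SC5D differed in sign between the arrays.

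**Figure D2:**
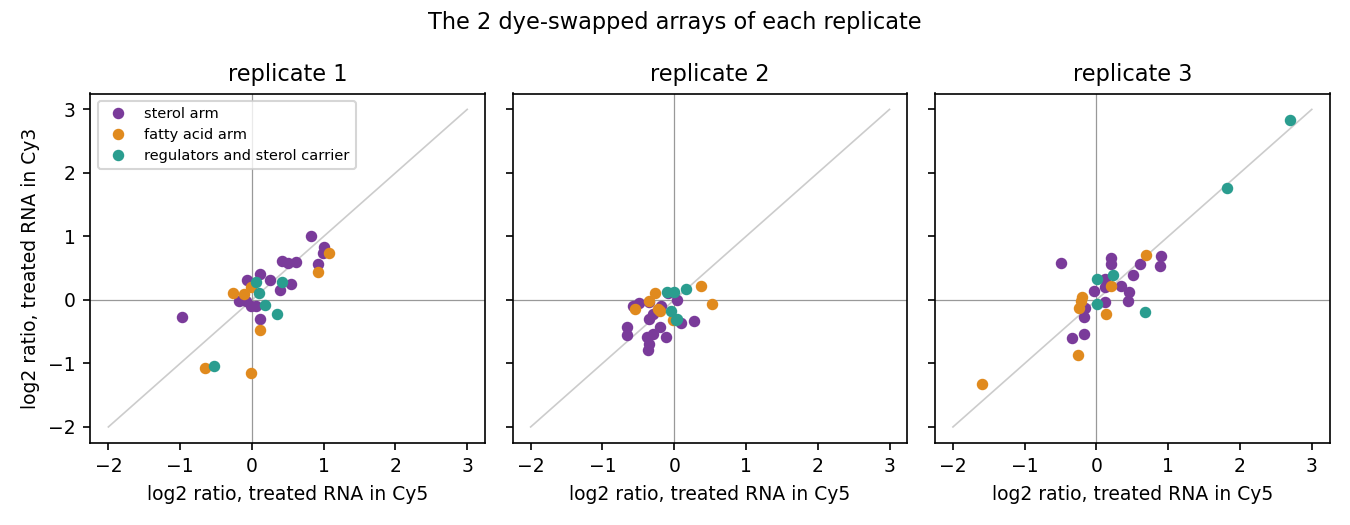
For each replicate, the log2 ratio on the array with treated RNA in Cy5 (horizontal) against that on the array with treated RNA in Cy3 (vertical), one point per gene above background, with the line of equal values in grey. Sterol arm points gather in the upper right in replicate 1 (11 of 18 positive on both arrays) and in the lower left in replicate 2 (14 of 18 negative on both).

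Of the 18 sterol genes, 8 were read by more than 1 probe above background. In replicate 1 the probes differed in sign for 4 of the 8 (ACAT2, CYP51A1, FDFT1 and TM7SF2), where 47.8% of such genes in the whole series did. In replicate 2 they differed for 1 of the 8 (TM7SF2), where 52.6% did. In replicate 3 they differed for 5 of the 8 (ACAT2, CYP51A1, HMGCS1, MVK and TM7SF2), where 51.7% did. These counts take in dim probes, among them the second probes of ACAT2, FDFT1, MVK and TM7SF2. All 4 probes of MSMO1 were positive in replicate 1 (0.15 to 0.92), negative in replicate 2 (-0.83 to -0.30) and positive in replicate 3 (0.29 to 1.02). The 4 probes of FDPS gave 0.12 to 0.69, then -0.35 to -0.26, then 0.030 to 0.24. HMGCS1 had 3 probes above background in both RNAs on all 6 arrays, with 0.15 to 1.03 in replicate 1, -0.53 to -0.46 in replicate 2 and -0.59 to 0.38 in replicate 3. Its other probe was above background in control RNA on 1 array only, so its sign is not used. Among all 13 genes with several probes above background, 7 had probes whose mean ratios over replicates differed in sign (53.8%), as did 52.3% of such genes in the whole series. One of the 7 is TM7SF2, whose brightest probe averaged -0.28 and whose other, far dimmer probe averaged 0.17.

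The fatty acid arm stayed closer to 0 as a set, but its genes went apart from one another. Its medians were -0.042, -0.18 and -0.10 in replicates 1, 2 and 3, with a mean of -0.11 ± 0.067 (SD, n = 3). In replicate 1, 2 of 8 genes were higher on both arrays and 2 were lower on both, where 32.6% and 32.9% of all genes were. In replicate 2, 5 of 8 were lower on both, and in replicate 3, 4 of 8, where 24.4% and 28.4% of all genes were. The sign of the median in replicate 1 was not stable: it was 0.030 when the ratios were made from the scanner intensities with normexp background correction. ACACA and LPIN1, described below, were read by dim probes. With a stricter filter on dim probes, which left these genes out, the medians were 0.046, -0.18 and -0.15 in replicates 1, 2 and 3. The part of dim probes in the set's nearness to 0 was not tested.

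FADS2, the delta-6 desaturase of polyunsaturated fatty acids, was the one gene of all 32 with the same sign on every array. It had -0.65 and -1.07 in replicate 1, -0.54 and -0.15 in replicate 2, and -0.24 and -0.12 in replicate 3. Its mean was -0.46 ± 0.36 (SD, n = 3), with unadjusted p = 0.0311 and adjusted p = 0.856 in limma, where 2.42% of all genes were lower at an unadjusted p under 0.05 and 2.50% were lower on all 6 arrays. FADS1, the delta-5 desaturase that follows it, had -0.012 and -1.16 in replicate 1, 0.38 and 0.22 in replicate 2, and -1.59 and -1.33 in replicate 3. Treated cells of replicate 3 thus had 2.75-fold less on this probe, with intensities of 3145 and 2956 in treated RNA against 8990 and 6610 in control RNA. The second FADS1 probe, far dimmer on every array, gave -0.15, 0.12 and -0.053. It was above background in treated RNA on 4 arrays and in control RNA on 3, so its sign is not used. FADS1 was the 1 of 8 genes higher on both arrays of replicate 2, where 24.8% of all genes were. Replicate 2 was therefore the high replicate for the brighter FADS1 probe, unlike in the sterol arm.

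Enzymes that supply acetyl-CoA were each high in a single replicate. ACSS2, which makes acetyl-CoA from acetate, had 1.08 and 0.73 in replicate 1, -0.26 and 0.10 in replicate 2, and -0.21 and 0.048 in replicate 3. ACLY, which makes it from citrate, had -0.10 and 0.096 in replicate 1, -0.22 and -0.14 in replicate 2, and 0.68 and 0.71 in replicate 3. Treated cells had 1.87-fold more ACSS2 in replicate 1 and 1.62-fold more ACLY in replicate 3. Of the later steps, ACACA, the acetyl-CoA carboxylase, averaged -0.017 ± 0.20 and ELOVL6, a fatty acid elongase, -0.070 ± 0.15 (SD, n = 3 each), with 0.097, -0.19 and -0.12 for ELOVL6 in the replicates. SCD, the stearoyl-CoA desaturase, had 0.68 in replicate 1, -0.17 in replicate 2 and -0.56 in replicate 3. It was read near the top of the scanner range, with intensities between 27320 and 58560 in treated RNA and between 26201 and 54977 in control RNA. LPIN1, a phosphatidate phosphatase of glycerolipid synthesis, averaged 0.0031, with 0.26 where Cy5 marked the treated RNA and -0.25 where Cy3 did. The ACACA probe was above background in treated RNA on 4 arrays and in control RNA on 2. The LPIN1 probe was so on 4 arrays in each RNA, so the values of ACACA and LPIN1 are weak readings. ACACA, SCD and LPIN1 are named after their values were seen.

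Set against the fatty acid arm, the sterol arm was higher in replicates 1 and 3 and lower in replicate 2. The difference of medians, sterol minus fatty acid, came to 0.32, -0.15 and 0.32 in replicates 1, 2 and 3. On single arrays it was 0.33 and 0.21 in replicate 1, -0.11 and -0.25 in replicate 2, and 0.38 and 0.28 in replicate 3, so the 2 arrays of a replicate gave it the same sign. Its mean over replicates, 0.16 ± 0.27 (SD, n = 3), was smaller than its spread. In replicate 2 both arms had negative medians, the sterol arm the lower of them. In replicate 3 the arms stood on either side of 0, and in replicate 1 the fatty acid median lay near 0. The mean difference was 0.32 without replicate 2, 0.084 without replicate 1 and 0.085 without replicate 3, and 0.040 with ratios from mean foreground intensities. With the stricter filter on dim probes the difference was 0.23, -0.16 and 0.36 in replicates 1, 2 and 3. The arms were not matched for brightness, and its part in the difference was not tested.

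**Figure D3:**
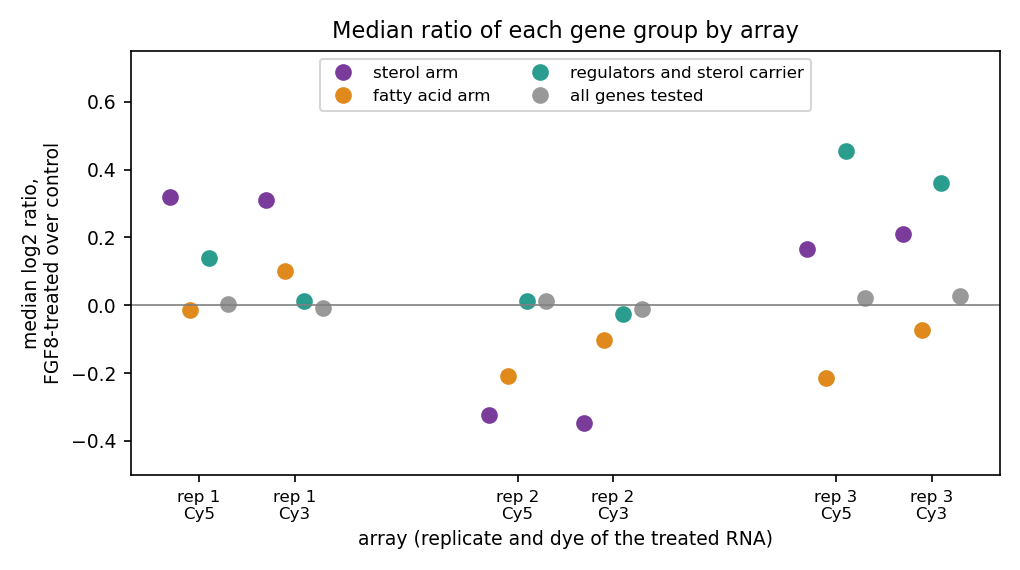
Median log2 ratio of FGF8-treated over control RNA (vertical axis) of the sterol arm, the fatty acid arm, the regulators and sterol carrier, and all genes tested, on each of the 6 arrays, labelled by replicate and by the dye of the treated RNA. The sterol medians are 0.32 and 0.31, then -0.32 and -0.35, then 0.17 and 0.21, and lie above the fatty acid medians in replicates 1 and 3 and below them in replicate 2.

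Among the regulators the largest ratios came from a single replicate. SCAP, the SREBP escort protein, had 2.70 and 2.84 on the arrays of replicate 3, against 0.10 and 0.11 in replicate 1 and -0.050 and -0.17 in replicate 2. In replicate 3 its intensity was 837 and 1168 in treated RNA, against 152 and 138 in control RNA. In replicates 1 and 2 treated RNA gave 121, 197, 113 and 178, against 187, 133, 189 and 138 in control RNA. The ratio of 6.82-fold thus came from the treated RNA of replicate 3, on both dyes, and SCAP had 1 probe on the array, above background in both RNAs on all 6 arrays. Its mean of 0.92 ± 1.60 (SD, n = 3, adjusted p = 0.856 in limma) became -0.0010 without replicate 3. In the test among replicates it had the smallest adjusted p of all 32 genes (7.59e-08 in limma's F test).

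INSIG1, which retains SCAP in the endoplasmic reticulum and is itself a target of SREBP, showed the same replicate on its brightest probe. It had 1.82 and 1.77 in replicate 3, against 0.41 and 0.28 in replicate 1 and -0.11 and 0.13 in replicate 2. Treated RNA of replicate 3 gave 1445 and 1688, against 438 and 410 in control RNA. The other 2 INSIG1 probes above background did not share this, with 0.025 and -0.25 in replicate 3, and the mean over the 3 probes was 0.11. Both were dimmer than the first. The one at -0.25 was above background in treated RNA on 3 arrays and in control RNA on 5. INSIG2, its paralogue, had 0.17, 0.17 and -0.027 in the 3 replicates. STARD4, a cytosolic sterol carrier, had 0.046, -0.14 and 0.31.

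Both SREBP genes had unsteady readings. SREBF1 had -0.52 and -1.05 on the arrays of replicate 1, 0.0014 and 0.12 on those of replicate 2, and 0.0075 and 0.33 on those of replicate 3. It was thus 1.72-fold lower in treated cells of replicate 1, and near or above 0 in the others. In replicate 1, 12 of the 18 sterol genes were above 0 and 6 below. A link between SREBF1 and these genes was not tested. SREBF2 was read by 2 bright probes that disagreed. The brighter gave 0.058, -0.14 and 0.25, with 0.35 where Cy5 marked the treated RNA and -0.24 where Cy3 did. The other gave -0.95, 0.036 and -0.87, and its arrays of replicates 1 and 3 lay between -1.17 and -0.73. Its mean was -0.59, with unadjusted p = 0.0302 and adjusted p = 0.856 in limma. The mean over both SREBF2 probes was -0.27, against 0.054 for the brighter alone, so no direction is given for this gene. As a set the 6 genes had medians of 0.083, -0.049 and 0.28.

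**Figure D4:**
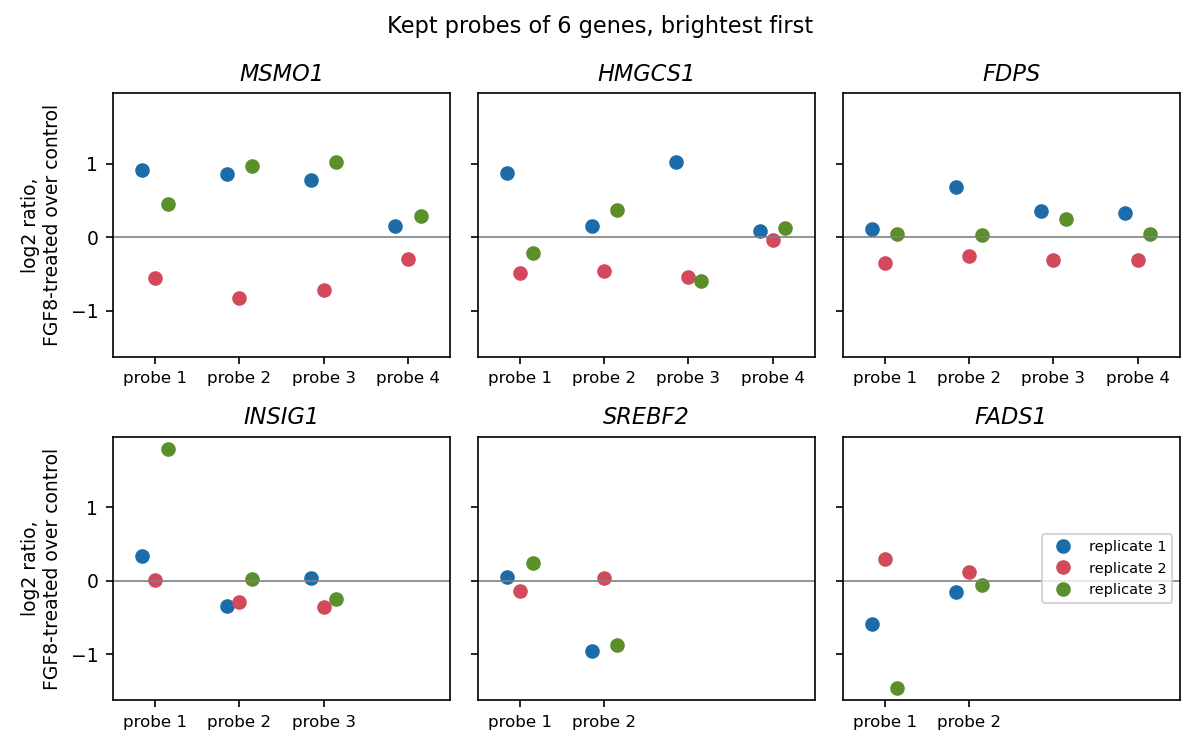
Replicate values of the log2 ratio of FGF8-treated over control RNA (vertical axis) for each probe above background of MSMO1, HMGCS1, FDPS, INSIG1, SREBF2 and FADS1, the brightest probe first; colour gives the replicate. The 4 probes of MSMO1 and of FDPS keep the same sign in each replicate, while those of HMGCS1 part in replicate 3. The 1.79 of INSIG1 in replicate 3 is on 1 of its 3 probes, and the SREBF2 probes differ in sign in every replicate.

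Other genes of lipid handling lay nearer to 0 as a set. Of 35 listed genes, 27 had a probe above background, and their medians were -0.034, 0.058 and 0.10 in replicates 1, 2 and 3. By limma 0 of the 27 passed at an adjusted p under 0.05, and 2 had an unadjusted p under 0.05, where 5.52% of all genes had one. MYLIP, a ubiquitin ligase that marks lipoprotein receptors for degradation, was higher on all 6 arrays, with 0.10, 0.54 and 0.91 (unadjusted p = 0.0259), where 3.10% of all genes were higher at an unadjusted p under 0.05. TECR, an enoyl-CoA reductase of fatty acid elongation, had -0.50, -0.26 and -0.25 (unadjusted p = 0.0424 in limma), where 2.42% of all genes were lower at an unadjusted p under 0.05. MBTPS1, the protease that makes the first cut in SREBP, and RNF139, an endoplasmic reticulum ubiquitin ligase, were also higher on all 6 arrays, at 0.24 ± 0.078 and 0.26 ± 0.15 (SD, n = 3 each, chosen after their values were seen). With MYLIP, 3 of the 27 were higher on all 6 arrays, as were 3.49% of all genes. One of the 27, SOAT1, which esterifies cholesterol for storage, was higher on both arrays of replicate 1 and lower on both of replicate 2, with replicate values of 0.72, -0.27 and 0.21, where 8 of 18 sterol enzymes and 9.31% of all genes were. The test among replicates called 5 of the 27, SOAT1 included, where it called 20.0% of all genes.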

How the data were processed

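RNA of FGF8-treated and control bovine granulosa cells was compared on 6 two-colour arrays, 2 dye-swapped arrays for each of 3 replicates. Per the labels, it was isolated with a kit for very small samples, amplified in 2 rounds and coupled to Cy3 or Cy5. The deposited value table holds a log2 ratio per probe and array. Set against the scanner tables, the ratios matched loess-normalized, background-subtracted median intensities with treated over control RNA as direction on all 6 arrays (r from 0.9999 to 1, slopes of 1, array medians -0.000848 to 0.00665). Any further step of the authors is not known here. Spot foreground and background intensity, per the file headers, came with the scanner tables and served for the filter and for alternatives.

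A probe was kept when its treated or its control RNA exceeded 95 percent of that array's 153 negative control spots on at least 4 of 6 arrays. Probes ignored on any array (143) were left out, which left 27210. Between 58.1 and 65.4% of probes were above background per array and RNA. Array number limits the precision. Gene symbols came from the platform annotation, which names 21790 probes with 1 symbol each, several for 0 and none for 22004. Of the named ones 20025 carried a current RefSeq symbol, 1524 were updated through a synonym (among them SC4MOL to MSMO1 and SC5DL to SC5D) and 241 kept the given name.

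In limma 3.58.1 (R 4.3.3), lmFit and eBayes tested, two-sided, whether the mean of the 3 replicate ratios differed from 0, with Benjamini-Hochberg adjustment over kept probes, at a threshold of 0.05. Differences among replicates were tested with limma on the 6 arrays, with replicate and dye as terms. Scripts were tested on simulated data. Both RNAs of a replicate were hybridised to common arrays, so replicate numbers pair them by design. The correlation of deviations was 0.198, 0.375 and 0.439 for arrays sharing a number, and -0.403 to 0.117 for others. Treated and control values of a number were read on the same arrays, so these correlations cannot show whether cultures were paired. Named in full were the regulators, the 5 genes of each arm with the smallest p, and the highest and lowest gene of each arm in each replicate; any others are marked in the text. Members and lists were chosen with earlier results of these data known.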

Additional observations from a re-analysis of the deposited data

Results flagged for a closer look

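The ratio of TM7SF2, a sterol reductase, differed between the dye orientations. Its brightest probe had a mean log2 ratio of -0.65 over the 3 arrays where Cy5 marked the treated RNA and 0.088 over the 3 where Cy3 did. The difference, Cy5 arrays minus Cy3 arrays, was -0.74 on the log2 scale (adjusted p = 0.0256 in limma, over all probes). It was negative in 3 of 3 replicates. The other TM7SF2 probe above background had a difference of the opposite sign, 0.63 (adjusted p = 0.0491 in limma, over all probes). That probe was far dimmer, and its control RNA was above background on 4 of 6 arrays. The direction of the dye effect thus differed between a bright and a dim probe of this gene. A dye effect was called for 7.22% of all genes and for 1 of the 32 genes described here. The mean of the brightest probe over both orientations, -0.28, cancels a dye effect, while its single arrays do not.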

How the results depend on the processing

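No gene of the 32 passed limma's adjusted threshold of 0.05 in the original fit or under any alternative, and its log2 ratio changed sign in 43 of 477 recomputed values. The count over all genes, 0 at first (618 at an unadjusted p under 0.05), was 11 with the replicate block over 6 arrays, 12 with the slide read from array names as a random block and 8 with treated RNA in Cy5 alone. In both block fits arrays, not replicates, supply the residual degrees of freedom. The smallest adjusted p of the 32 with the replicate block was 0.505 (FADS2), so the block changed no call among them. Without replicates in turn that count stayed at 0, also for the 32. The sterol medians kept their signs in each replicate under every setting run, with ranges of 0.25 to 0.46, -0.37 to -0.28 and 0.085 to 0.31. Their mean over replicates ran from -0.054 to 0.25 when a replicate was left out, that of the regulators from 0.017 to 0.18, that of the fatty acid arm from -0.14 to -0.071, and the sterol minus fatty acid difference from 0.084 to 0.32; over all settings this difference was 0.040 to 0.32. The fatty acid median of replicate 1 turned to 0.030 with normexp on median foreground, 0.070 on mean foreground, 0.062 with median centring, 0.046 with the stricter filter and 0.10 with treated RNA in Cy3 alone. That of replicate 2 was -0.039 on mean foreground and -0.10 with Cy3 alone, that of replicate 3 was 0.057 with median centring and -0.21 with Cy5 alone, and the mean was -0.011, -0.0011 and -0.024 on mean foreground, with median centring and with Cy3 alone. The regulators' median of replicate 3 was 0.46 with Cy5 alone. With median centring the median of all genes was 0.038. The test among replicates called 4863 genes on mean foreground, against 2240, with 22 of the 32 and 11 of the sterol arm among them; without a replicate in turn it called 1217 to 1938 genes, 9 to 11 of the 32 and 3 to 7 of the sterol arm. The cause of these changes was not tested, except that leaving out replicates takes away arrays.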
